A study of Mus musculus with 6 samples.

Results

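The genes described here make, break down and bind hyaluronan in palatal shelves, taken from mouse embryos at E14.5. They are 9 of the 55631 genes in the table, taken by gene symbol for the known roles of their products in hyaluronan biology, with earlier results of these data known: the hyaluronan synthases Has1, Has2 and Has3, the hyaluronidases Hyal1 and Hyal2, the receptors Cd44 and Hmmr, the matrix proteoglycan gene Vcan and the binding protein gene Tnfaip6. All 9 had a row in the table. Bulk RNA was sequenced in 3 KO libraries, from embryos labelled p130Casfl/fl; CAG-Cre, and in 3 control libraries, from embryos labelled p130Casfl/fl with no Cre and titled WT. Embryos of both groups were floxed at Bcar1, whose product p130Cas is a scaffold that relays signals from integrins, and the groups differed by a Cre transgene under CAG, a promoter known to be active in nearly all cells. The title of the series names a failure of the palatal mesenchyme to expand and a cleft palate after loss of p130Cas.

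Hyaluronan is a very long, unbranched sugar polymer that synthases spin out through the plasma membrane. It holds water, and the swollen matrix that it forms with versican and other binding proteins is long known as a feature of palatal shelves about to lift above the tongue. In the mouse, Has2 is the synthase that the embryo cannot do without. Hyaluronidases cut the polymer, and receptors such as CD44 tie it to the cell surface.

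None of the 9 genes passed the test between KO and control shelves. Has2, Vcan, Hyal2, Cd44 and Hmmr were expressed in both groups, at mean levels above 52.8% (Hmmr) to 93.6% (Vcan) of tested genes. For all but Cd44 the difference between the group means was smaller than the larger of the 2 group SDs. FPKM, fragments scaled to gene length and library size, had to average 1 or more over the 6 libraries for a gene to be tested. The test was limma on log2(FPKM + 1), and it took in 14714 genes and 8 of the 9 members. Over all tested genes, 49 passed at an adjusted p under 0.05, or 0.333%; 0.326% of the tested genes were higher and 0.0068% lower in KO. Of the 8 tested members, 0 passed, and 0 had an unadjusted p under 0.05, against 4.01% of all tested genes. The log2 fold changes, KO over control, were above 0 for 4 members and below 0 for 4, with a median of 0.00 beside -0.02 over all tested genes. Has1 did not reach the level for testing. The groups did not overlap for 1 of the 9 members, Cd44, and for 9.06% of all tested genes.

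The libraries were checked first. Bcar1, which encodes p130Cas, was at 1.69, 1.69 and 1.31 FPKM in KO replicates 1 to 3, against 1.80, 1.97 and 2.09 FPKM in control replicates 1 to 3. The KO values were all lower, but the difference did not pass (limma, adjusted p = 1.00). A value over the whole gene can take in exons that Cre leaves in place, which was not tested. These values therefore do not show how far Bcar1 was lost in the KO libraries. All 12 palatal mesenchyme markers examined, among them Barx1, Prrx1 and Twist1, were above the filter, and their FPKM summed to between 646 and 797 in KO libraries and between 686 and 721 in control libraries. Read depth behind a value is not known from FPKM. No library held a value above 0 that was under 0.1 FPKM, so a gene listed at 0 may have a level below about that. Litters are not named in the labels, and the p-values therefore reflect only how far these samples spread, part of which may be technical. In bulk tissue, fewer cells of a type and less RNA per cell cannot be told apart.

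**Figure D1:**
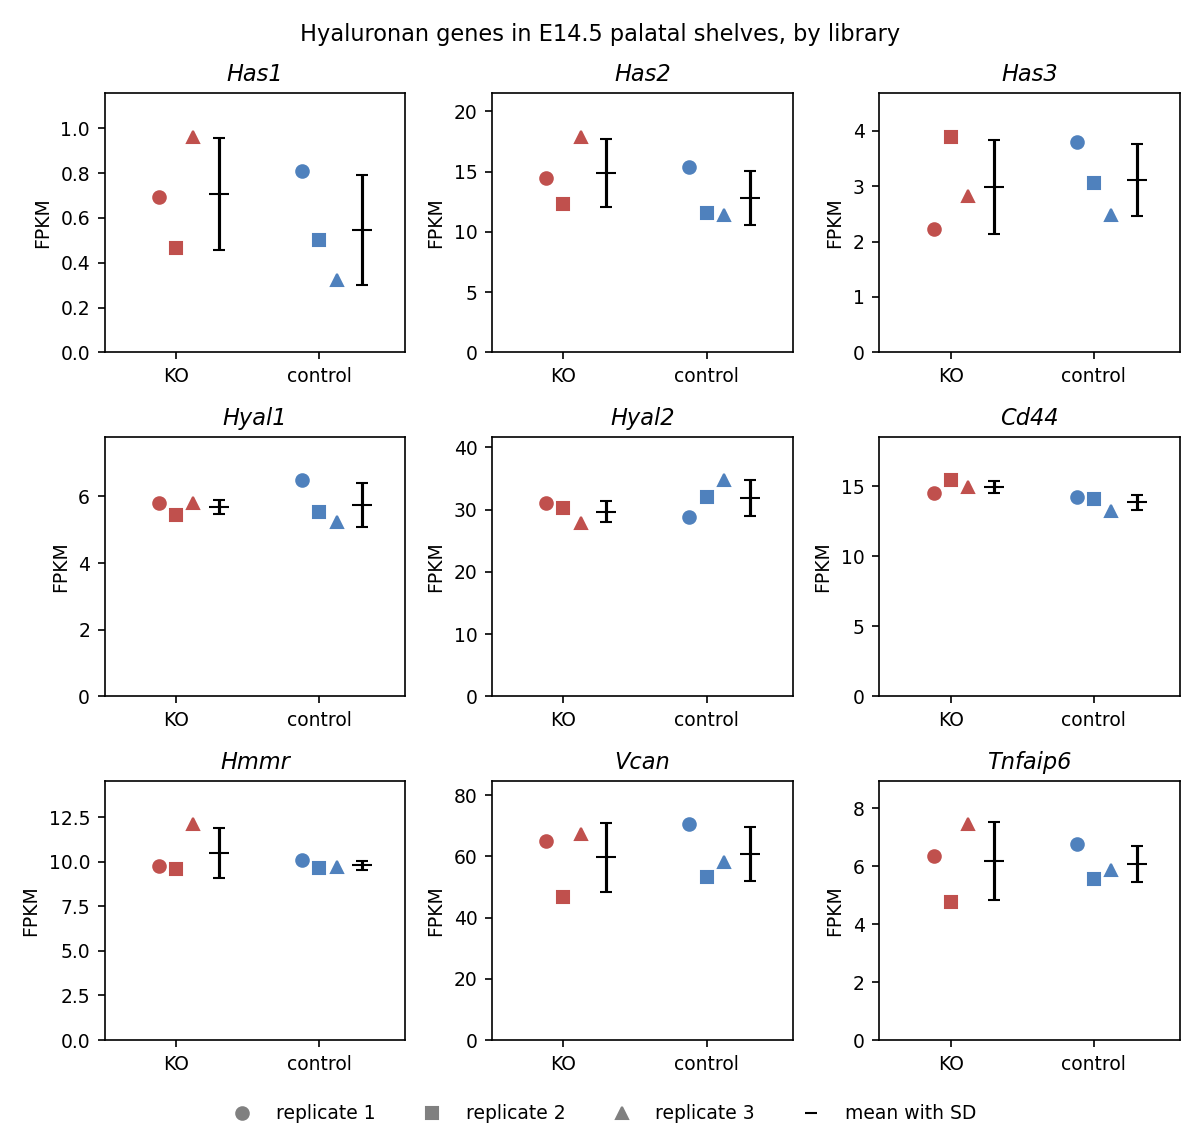
FPKM of the 9 hyaluronan genes (vertical axes, each from 0) in KO and control palatal shelves; symbols are libraries, and the horizontal tick with bars is the mean with SD of 3 libraries. The groups overlap in every panel but that of Cd44, where the lowest KO library is at 14.51 FPKM and the highest control library at 14.2 FPKM.

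Because FPKM is scaled to gene length, the levels of the genes can be set side by side. Vcan had the highest level of the 9, with a mean of 60.2 FPKM over the 6 libraries, above 93.6% of tested genes. Hyal2 followed at 30.8 FPKM, then Cd44 at 14.4, Has2 at 13.9, Hmmr at 10.1, Tnfaip6 at 6.13, Hyal1 at 5.71, Has3 at 3.04 and Has1 at 0.625 FPKM. The ranges of Vcan, Hyal2 and Cd44 lay apart from each other. Cd44 and Has2 overlapped, with Cd44 the higher in 3 of 6 libraries. Has2 and Hmmr overlapped in range, but Has2 was the higher in all 6 libraries. Tnfaip6 and Hyal1 overlapped too, with Tnfaip6 the higher in 5 libraries, and Has3 and Has1 lay apart from each other and from all genes above them.

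Has2 was the main synthase transcript of the shelves. Has2 (ENSMUSG00000022367; chromosome 15 from 56665627 to 56694539, minus strand of GRCm38) was, to 4 decimals as the table gives them, at 14.5003, 12.3189 and 17.9221 FPKM in KO replicates 1 to 3, against 15.3901, 11.6245 and 11.3844 FPKM in control replicates 1 to 3. The highest value was in KO replicate 3 and the lowest in control replicate 3, but control replicate 1 was above 2 of the 3 KO libraries, so the groups overlapped. The means were 14.9 ± 2.82 FPKM in KO and 12.8 ± 2.25 FPKM in control shelves (SD, n = 3 each). On the log2(FPKM + 1) scale the fold change was 0.20 ± 0.15 (SE), with a 95% interval from -0.15 to 0.56, and did not pass (limma, adjusted p = 1.00). On the scale of FPKM + 1 the interval runs from a 0.899-fold to a 1.47-fold level. Without KO replicate 3 the log2 fold change was 0.07, and without control replicate 1 it was 0.33. The antisense gene Has2os overlaps 182 exonic bases of Has2, or 4.3%, on the opposite strand and averaged 1.57 ± 0.281 FPKM in KO and 1.79 ± 0.246 FPKM in control shelves. Whether the counting used strand is not given in the sources used here, so reads over those bases may be shared.

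Has3, a synthase known for high activity in cell culture and for expression in epithelia, was lower in level and spread widely in both groups. Has3 (ENSMUSG00000031910; chromosome 8 from 106870242 to 106884566, plus strand) was at 2.22, 3.89 and 2.82 FPKM in KO replicates 1 to 3, against 3.79, 3.06 and 2.48 FPKM in control replicates 1 to 3. KO replicate 2 was the highest library and KO replicate 1 the lowest. The log2 fold change was -0.06 ± 0.18 (SE), with a 95% interval from -0.47 to 0.36 (limma, adjusted p = 1.00), and it turned to 0.09 without KO replicate 1 and to 0.06 without control replicate 1. The FPKM of 10 epithelial markers, led by Krt14, Krt5 and Krt15, summed to 465, 640 and 360 in KO replicates 1 to 3 and to 466, 533 and 421 in control replicates 1 to 3, so KO replicate 2 was the highest library there too. The other libraries did not keep the same order. The lowest library was KO replicate 1 for Has3 and KO replicate 3 for the markers. Among controls, the highest was replicate 1 for Has3 and replicate 2 for the markers. The part of the epithelium in the Has3 values was not tested. Has3 shares 352 exonic bases, or 5.5%, with Chtf8 on the opposite strand, and the more abundant of the 2 Chtf8 entries lay between 48.7 and 60.5 FPKM in the 6 libraries. Without the strand setting, reads over those bases cannot be told apart.

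Has1 was barely present. Has1 (ENSMUSG00000003665; chromosome 17 from 17843323 to 17855205, minus strand) was at 0.691, 0.465 and 0.962 FPKM in KO replicates 1 to 3, against 0.808, 0.502 and 0.323 FPKM in control replicates 1 to 3. Every library was under 1 FPKM, and the groups overlapped (exact two-sided permutation test, p = 0.5, where 0.1 is the smallest p that 3 libraries against 3 allow). With the 3 synthases added up, Has2 made up 83.3%, 73.9% and 82.6% of synthase FPKM in KO replicates 1 to 3, and 77.0%, 76.6% and 80.3% in control replicates 1 to 3. The share of Has3 ran from 12.8% to 23.3% in KO and from 17.5% to 20.1% in control shelves. The order of Has2, Has3 and Has1 was thus the same in all 6 libraries.

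**Figure D2:**
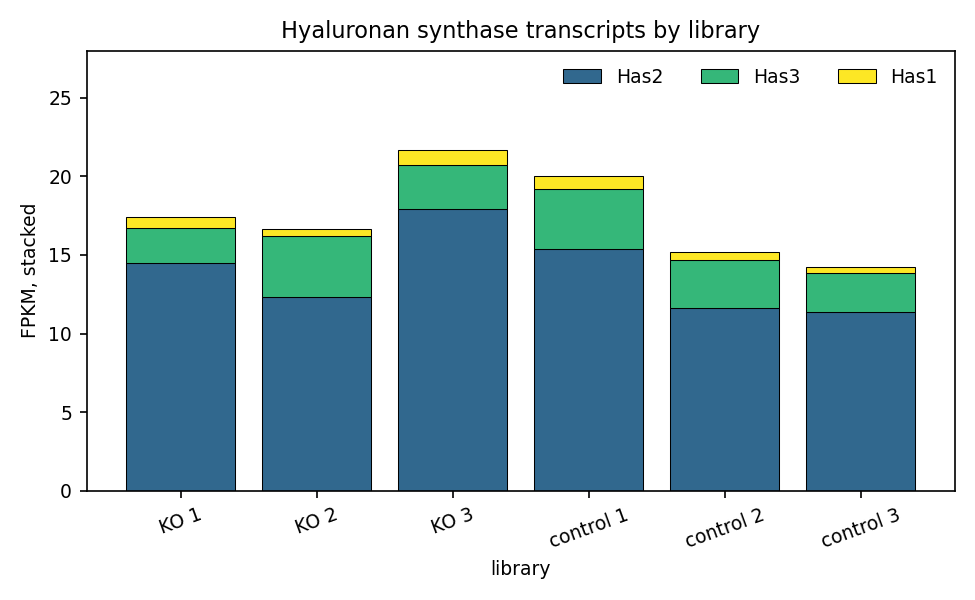
FPKM of the 3 hyaluronan synthase genes stacked for each library (horizontal axis), with Has2 at the bottom, Has3 in the middle and Has1 on top. Has2 makes up between 73.9% and 83.3% of the stack, and the stacks average 18.6 FPKM in KO and 16.5 FPKM in control shelves.

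The synthases are related genes, and the stretches that their messages share bear on how reads can be split between them. Over the longest coding sequences in GENCODE M21, Has2 and Has3 were identical at 68.9% of aligned bases, Has1 and Has3 at 68.1% and Has1 and Has2 at 62.7%. The longest exact run common to Has2 and Has3 was 23 bases, and the pairs with Has1 shared at most 17 bases. The Has2 and Has3 run is shown with 20 bases on either side, and capitals mark the shared bases. It begins at base 706 of the Has2 and base 718 of the Has3 coding sequence, counted from the A of the start codon.
Has2: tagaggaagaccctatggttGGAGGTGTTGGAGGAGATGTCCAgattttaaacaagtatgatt
Has3: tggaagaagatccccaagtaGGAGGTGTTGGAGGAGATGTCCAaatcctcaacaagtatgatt
The run shared by Has1 and Has2 is shown in the same way, with 20 bases on either side. The windows printed span chr17:17844178-17844234 and chr15:56668210-56668266 of GRCm38, both on the minus strand and both within 1 exon.
Has1: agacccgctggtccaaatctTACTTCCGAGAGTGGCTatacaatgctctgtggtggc
Has2: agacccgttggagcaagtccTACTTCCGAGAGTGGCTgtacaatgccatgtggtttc
No longer stretch of coding sequence was identical between 2 synthases. The read length is not given in the sources used here.

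Of the hyaluronidases, Hyal2 was the more abundant by far. Hyal2 encodes a membrane-anchored enzyme that cuts long hyaluronan at the cell surface, and Hyal1 a lysosomal enzyme that degrades the fragments. Hyal2 (ENSMUSG00000010047; chromosome 9 from 107567945 to 107572779, plus strand) was at 31.0, 30.3 and 27.8 FPKM in KO replicates 1 to 3, against 28.8, 32.1 and 34.7 FPKM in control replicates 1 to 3. The highest 2 values were in control libraries and the lowest in KO replicate 3, and the groups overlapped. The log2 fold change was -0.10 ± 0.08 (SE), with a 95% interval from -0.29 to 0.10 (limma, adjusted p = 1.00), and it ranged from -0.17 without control replicate 1 to -0.04 without control replicate 3. Gm9917, a predicted antisense gene that lies across Hyal2 on the opposite strand and shares 0 exonic bases with it, is named here after its values were seen. It was at 1.59, 1.05 and 1.15 FPKM in KO replicates 1 to 3, against 2.69, 2.54 and 2.61 FPKM in control replicates 1 to 3, with no overlap, and did not pass (log2 fold change -0.68 ± 0.12 (SE); limma, adjusted p = 0.110).

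Hyal1 (ENSMUSG00000010051; chromosome 9 from 107576927 to 107581710, plus strand) was at 5.80, 5.45 and 5.79 FPKM in KO replicates 1 to 3, against 6.48, 5.52 and 5.24 FPKM in control replicates 1 to 3. The KO values lay within the span of the control values. Its log2 fold change was -0.01 ± 0.09 (SE; limma, adjusted p = 1.00), with a 95% interval from -0.23 to 0.20, and it turned to 0.07 without control replicate 1 and to 0.01 without KO replicate 2. Hyal1 shares 1920 of its 3777 exonic bases, or 50.8%, with Naa80, an actin N-acetyltransferase gene on the same strand, which stood between 12.2 and 13.9 FPKM in KO and between 12.4 and 14.6 FPKM in control shelves. It also shares 159 bases with Hyal3, so the level of Hyal1 is uncertain. The coding sequences of Hyal1 and Hyal2 were identical at 60.4% of aligned bases, with a longest exact run of 14 bases. Hyal2 exceeded Hyal1 by 4.8-fold to 5.56-fold in KO libraries and by 4.45-fold to 6.62-fold in control libraries.

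Synthase and hyaluronidase levels were set against each other in each library, as a description with no test. Has1, Has2 and Has3 summed to 0.473, 0.466 and 0.646 of the FPKM of Hyal1 and Hyal2 in KO replicates 1 to 3, and to 0.566, 0.403 and 0.355 in control replicates 1 to 3. KO replicate 3 had the highest ratio and control replicate 3 the lowest, and the groups overlapped.

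Vcan encodes versican, the large chondroitin sulfate proteoglycan that binds hyaluronan and fills the loose matrix of embryonic mesenchyme. Vcan (ENSMUSG00000021614; chromosome 13 from 89655312 to 89742509, minus strand) was at 65.1, 46.8 and 67.4 FPKM in KO replicates 1 to 3, against 70.5, 53.4 and 58.1 FPKM in control replicates 1 to 3. The lowest library was KO replicate 2 and the highest control replicate 1, and the spread was wide in both groups. The means were 59.8 ± 11.3 FPKM in KO and 60.7 ± 8.80 FPKM in control shelves (SD, n = 3 each). KO over control, the log2 fold change was -0.03 ± 0.15 (SE), with a 95% interval from -0.39 to 0.33 (limma, adjusted p = 1.00), and it turned to 0.14 without KO replicate 2 and to 0.08 without control replicate 1. KO replicate 2 was also the library with the highest summed epithelial markers and the only one with Xist, at 61.0 FPKM against 0 in the other libraries; their part in the Vcan values was not tested. Versican messages differ by which glycosaminoglycan exons they keep, and a value for the whole gene does not separate them.

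Tnfaip6 encodes TSG-6, a secreted protein that moves heavy chains from inter-alpha-inhibitor onto hyaluronan and so cross-links it. Tnfaip6 (ENSMUSG00000053475; chromosome 2 from 52038009 to 52056686, plus strand) was at 6.35, 4.78 and 7.45 FPKM in KO replicates 1 to 3, against 6.78, 5.57 and 5.87 FPKM in control replicates 1 to 3. KO replicates held both the highest and the lowest value. In the fit, the log2 fold change was 0.01 ± 0.15 (SE), with a 95% interval from -0.33 to 0.35 (limma, adjusted p = 1.00), and it turned to -0.11 without KO replicate 3, -0.04 without control replicate 2, -0.01 without KO replicate 1 and -0.01 without control replicate 3. Vcan exceeded Tnfaip6 by 9.06-fold to 10.3-fold in KO libraries and by 9.59-fold to 10.4-fold in control libraries, so the 2 genes kept nearly the same ratio where their levels varied by 1.51-fold and 1.56-fold from the lowest to the highest library. Among the 36 member pairs, ratios did not overlap between groups for 2. Has2 over Vcan was 0.223 to 0.266 in KO and 0.196 to 0.218 in control libraries. Has2 over Tnfaip6 was 2.28 to 2.58 in KO and 1.94 to 2.27 in control libraries. Both pairs hold Has2, and Vcan and Tnfaip6 varied together, so these are not 2 separate results. Taken singly, 9.06% of all tested genes had groups that did not overlap. The share over all gene pairs was not computed, and ratios were not tested.

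The promoters of Vcan and Tnfaip6 are shown because these genes varied together over the libraries. They are from RefSeq on GRCm38.p6, in which 7 of the 9 members were matched, and only bases before the gene start of both RefSeq and GENCODE are printed. The 250 bases before the RefSeq start were searched on both strands for a CCAAT box, the core promoter motif TATAAA, a GC box (GGGCGG), an AP-1 site (TGANTCA), an interferon response element (GAAA, any 2 bases, then GAAA), a STAT site (TTCNNNGAA), a cell cycle homology region (TTTGAA) and a TEAD site (GGAATG). Capitals mark matches.
Vcan, chr13:89742513-89742762, minus strand: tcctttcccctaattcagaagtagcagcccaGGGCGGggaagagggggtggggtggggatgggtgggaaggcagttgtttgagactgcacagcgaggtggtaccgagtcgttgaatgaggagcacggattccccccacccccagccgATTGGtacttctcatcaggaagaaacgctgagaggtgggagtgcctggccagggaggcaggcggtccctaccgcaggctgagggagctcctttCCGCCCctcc
Tnfaip6, chr2:52037863-52038008, plus strand: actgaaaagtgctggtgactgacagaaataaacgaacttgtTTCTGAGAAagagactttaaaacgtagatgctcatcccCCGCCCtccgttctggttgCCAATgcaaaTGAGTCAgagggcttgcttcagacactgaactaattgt
Vcan had a CCAAT box and 2 GC boxes, and Tnfaip6 had a STAT site, a GC box, a CCAAT box and an AP-1 site in the bases printed. A further CCAAT box and a TEAD site lay in its remaining bases. Of 32851 promoters searched over the same length, 33.8% held a CCAAT box, 32.7% a GC box, 7.02% a STAT site, 6.75% an AP-1 site and 12.6% a TEAD site. Of the 7 members matched, 5 held a CCAAT box and 5 a GC box, and 0 held TATAAA or an interferon response element, which 12.4% and 2.98% of all promoters held. These are matches of letters, not measured binding.

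Cd44 encodes the main cell surface receptor for hyaluronan, which is carried by mesenchyme, epithelium and leukocytes. Cd44 (ENSMUSG00000005087; chromosome 2 from 102811141 to 102901665, minus strand) was at 14.51, 15.4 and 14.9 FPKM in KO replicates 1 to 3, against 14.2, 14.1 and 13.2 FPKM in control replicates 1 to 3. All 3 KO libraries lay above all 3 control libraries, and the libraries within a group lay close together. The means were 14.9 ± 0.457 FPKM in KO and 13.8 ± 0.508 FPKM in control shelves (SD, n = 3 each), 7.9% higher in KO. Its log2 fold change was 0.10 ± 0.06 (SE), with a 95% interval from -0.05 to 0.25, and did not pass (limma, adjusted p = 1.00). By an exact permutation test, two-sided, p was 0.1, as small as 3 libraries against 3 can give. KO values were above control values without overlap for 3.27% of all tested genes.

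Between the groups, leukocyte markers lay in the same direction as Cd44. Their 12 genes, led by C1qb, Lyz2 and C1qa, summed to 117, 142 and 104 FPKM in KO replicates 1 to 3 and to 72.8, 79.5 and 91.1 FPKM in control replicates 1 to 3. Of 11 tested, 11 had a log2 fold change above 0 and 9 had no overlap between groups, and 0 passed (limma, lowest adjusted p = 0.152). Over all tested genes, 9.06% had no overlap between groups, and 3.27% had none with KO higher. None of the 12 leukocyte markers was at 0. Ptprc, which defines leukocytes, lay between 0.916 and 1.31 FPKM in KO and between 0.464 and 0.736 FPKM in control shelves. Within the groups the match was partial. KO replicate 2 was the highest KO library for Cd44 and for the marker sum. In controls, Cd44 was highest in replicate 1 and lowest in replicate 3, and the marker sum ran the other way. The direction was not particular to leukocyte markers. Log2 fold changes were also above 0 for 14 of 15 mitotic genes and for 12 of 12 interferon response genes. They were below 0 for 9 of 9 endothelial and 10 of 10 muscle markers. The part of leukocytes in the Cd44 values was not tested.

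Hmmr encodes RHAMM, a hyaluronan-binding protein that also sits on the mitotic spindle. Hmmr (ENSMUSG00000020330; chromosome 11 from 40701395 to 40733422, minus strand) was at 9.75, 9.58 and 12.1 FPKM in KO replicates 1 to 3, against 10.1, 9.64 and 9.69 FPKM in control replicates 1 to 3. KO replicate 3 stood above the other 5 libraries, which lay close together. KO over control, the log2 fold change was 0.08 ± 0.10 (SE), with a 95% interval from -0.14 to 0.30 (limma, adjusted p = 1.00), and it turned to -0.02 without KO replicate 3. The FPKM of 15 mitotic genes, led by Top2a, Ccnb1 and Mki67, summed to 370, 389 and 434 in KO replicates 1 to 3 and to 400, 366 and 368 in control replicates 1 to 3, highest in KO replicate 3 as well. Hmmr came to between 2.47% and 2.78% of that sum in KO and between 2.53% and 2.63% in control shelves. How far the number of dividing cells sets the Hmmr level was not tested.

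The Hmmr promoter is shown for its CCAAT boxes, a motif known from the promoters of mitotic genes. Capitals mark matches of the motifs listed above.
Hmmr, chr11:40733438-40733687, minus strand: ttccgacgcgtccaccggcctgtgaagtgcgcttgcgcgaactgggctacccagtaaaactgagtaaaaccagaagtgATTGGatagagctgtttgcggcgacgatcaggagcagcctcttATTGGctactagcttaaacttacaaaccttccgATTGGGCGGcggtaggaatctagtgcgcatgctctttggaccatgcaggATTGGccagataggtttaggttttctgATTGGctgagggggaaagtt
It held 5 CCAAT boxes, all as ATTGG on the strand shown, within the bases printed, and a GC box that overlaps one of them. As many or more CCAAT boxes were found in 70 of the 32851 promoters, or 0.213%. The promoter was picked for these boxes, so that share is a description and no test. It held no match to the cell cycle homology region, which 16.0% of all promoters held.

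Much of the spread among the libraries ran across the groups. KO replicates 1 and 3 and control replicate 1 were the 3 highest libraries for 6 of the 9 members, namely Has1, Has2, Hyal1, Hmmr, Vcan and Tnfaip6. This pattern was noticed in the data and is given with no test. The same 3 libraries were highest for 17.1% of all tested genes, so the pattern is common in this table. For Has1, Has2, Hmmr and Tnfaip6 the order of the top 3 was KO replicate 3, control replicate 1 and KO replicate 1. The pattern held for 5 of 15 mitotic markers, 2 of 12 palatal mesenchyme markers and 0 of 10 epithelial markers. Has3, Hyal2 and Cd44 did not share it.

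**Figure D3:**
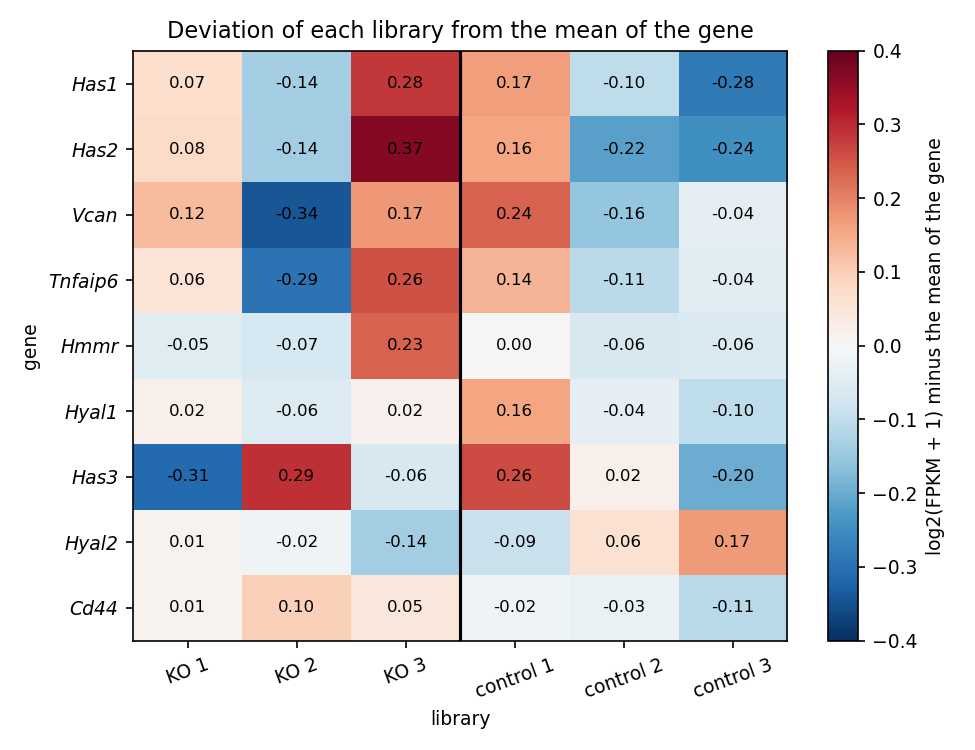
Deviation of each library (columns, KO left of the line and control right of it) from the mean of the gene (rows) in log2(FPKM + 1), red above and blue below. KO 3 and control 1 are above the mean for Has1, Has2, Vcan and Tnfaip6, while KO 2 and control 2 are below it for all 4.

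Has3, Has2 and Vcan varied most over the libraries among the tested members, and the genes with the most similar profiles were looked up for each. Likeness was measured as the root-mean-square difference of log2(FPKM + 1), each gene centred on its own mean, over the 6 libraries. The nearest to Has2 were Sema3d at 0.03, Prrg1 at 0.03 and H2-T24 at 0.04, where Has2 itself had an SD of 0.24. Vcan had an SD of 0.22, and its nearest were Sema3a at 0.03, Gse1 at 0.03 and Prpf4b at 0.04. For Has3, with an SD of 0.24, they included Fmo2 at 0.05 and Mpped1 at 0.06. With 14714 genes and 6 libraries, near matches of this kind are easily found.

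**Figure D4:**
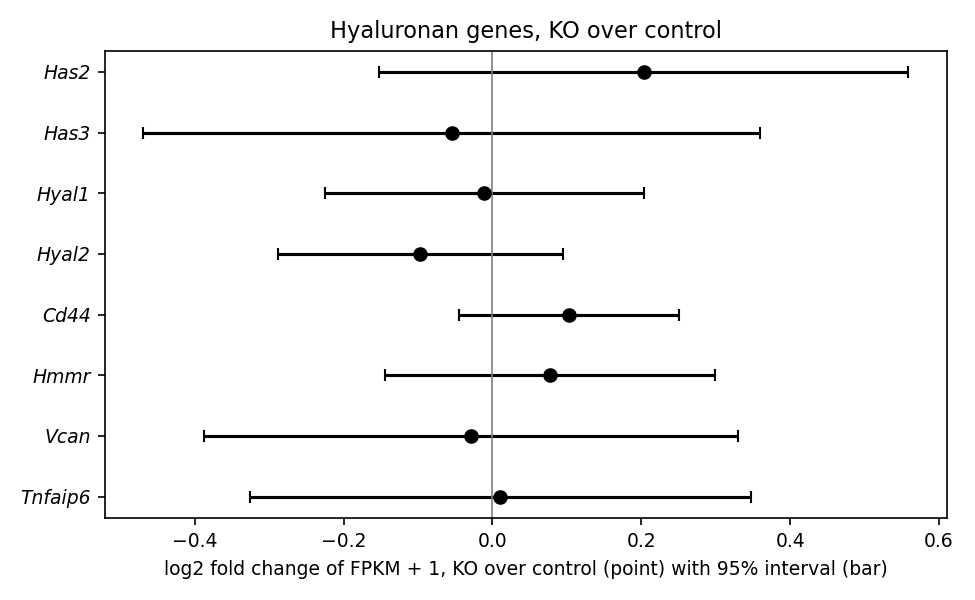
Log2 fold change of FPKM + 1, KO over control (horizontal axis), for the 8 tested hyaluronan genes (rows); points are limma estimates and bars their 95% intervals. Every interval spans 0, and they are widest for Has3, Vcan and Has2.

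Genes around the 9 members were then read from the same fit in 6 lists that cover sugar precursors, other breakdown enzymes, other receptors, other binders, versican proteases and versican partners. Of the 52 genes in the table, 31 were tested and 0 passed in either direction, against 0.333% of all tested genes. Ptx3 alone had an unadjusted p under 0.05. The log2 fold change was above 0 for 16 and below 0 for 15, with a median of 0.01.

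The enzymes that supply the sugar precursors of hyaluronan were expressed in both groups. All 8 were tested, with 0 higher, 0 lower and a median log2 fold change of 0.01. Ugp2, which makes UDP-glucose, averaged 30.6 ± 1.51 FPKM in KO and 30.2 ± 4.27 FPKM in control shelves (SD, n = 3 each). Ugdh, which oxidises UDP-glucose to UDP-glucuronic acid, averaged 29.3 ± 0.197 FPKM in KO and 29.6 ± 1.10 FPKM in control shelves. Uap1, which makes UDP-N-acetylglucosamine, averaged 21.3 ± 1.49 FPKM in KO and 22.4 ± 0.772 FPKM in control shelves. Gnpnat1, an enzyme of the same branch, was at 4.44, 4.34 and 4.35 FPKM in KO replicates 1 to 3, against 4.66, 4.8 and 1.87 FPKM in control replicates 1 to 3, and control replicate 3 lay far below the other 5 libraries.

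Of the other breakdown genes, 4 of 10 were tested, with 0 higher, 0 lower and a median of 0.02. Hyal4, Hyal5, Hyal6 and Spam1, hyaluronidase genes of the testis or of restricted expression, were listed at 0 in all 6 libraries. Cemip2, a cell surface protein that degrades hyaluronan in the mouse, is named outside the rule and averaged 15.8 ± 1.36 FPKM in KO and 15.8 ± 0.648 FPKM in control shelves. Hexa encodes a subunit of lysosomal hexosaminidase, which takes sugars from the ends of hyaluronan fragments, and Gusb encodes the glucuronidase that works beside it. Hexa averaged 28.7 ± 0.640 FPKM in KO and 28.9 ± 2.79 FPKM in control shelves, and Gusb averaged 16.7 ± 0.420 FPKM in KO and 16.2 ± 0.930 FPKM in control shelves.

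Of 6 other receptors, 3 were tested, with 0 higher, 0 lower and a median of 0.14. Stab1, a scavenger receptor of macrophages and endothelium, averaged 12.3 ± 0.460 FPKM in KO and 11.2 ± 1.52 FPKM in control shelves. Tlr2, a pattern receptor that fragments of hyaluronan are reported to engage, averaged 3.35 ± 0.278 FPKM in KO and 2.97 ± 0.349 FPKM in control shelves. Of 15 other binders, 4 were tested, with 0 higher, 0 lower and a median of -0.37. Ptx3, the pentraxin that joins TSG-6 in hyaluronan matrices, was at 12.2, 10.2 and 12.8 FPKM in KO replicates 1 to 3, against 8.72, 11.1 and 8.82 FPKM in control replicates 1 to 3. Control replicate 2 lay above KO replicate 2, and the log2 fold change of 0.27 did not pass (limma, unadjusted p = 0.0481, adjusted p = 1.00). Itih1, Itih3, Itih4 and Ambp, which encode chains of the inter-alpha-inhibitor family made mainly in liver, and Habp2 were listed at 0 in all libraries.

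The binders with the widest spread were those of cartilage. Hapln1, the link protein that locks aggrecan to hyaluronan, was at 21.4, 2.98 and 2.94 FPKM in KO replicates 1 to 3, against 9.41, 7.93 and 16.7 FPKM in control replicates 1 to 3. Acan, which encodes aggrecan and is named after its values were seen, was at 15.7, 2.24 and 1.37 FPKM in KO replicates 1 to 3, against 6.38, 5.04 and 13.3 FPKM in control replicates 1 to 3. KO replicate 1 was the highest library for both and KO replicates 2 and 3 the lowest, so the groups overlapped. The FPKM of 11 cartilage markers, led by Col2a1, Col9a2 and Col9a3, summed to 715, 165 and 145 in KO replicates 1 to 3 and to 331, 290 and 604 in control replicates 1 to 3, in the same order of libraries as Hapln1. The part of cartilage in these values was not tested. Has2, Vcan and Tnfaip6 did not follow that order.

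Versican is cut by proteases of the ADAMTS family, which remodel it in the mouse palate. All 7 were tested, with 0 higher, 0 lower and a median of -0.02. Adamts1 averaged 13.8 ± 2.23 FPKM in KO and 12.1 ± 0.593 FPKM in control shelves (SD, n = 3 each), and Adamts15 averaged 6.43 ± 1.44 FPKM in KO and 7.29 ± 0.606 FPKM in control shelves. Adamts9 was at 10.5, 4.8 and 9.40 FPKM in KO replicates 1 to 3, against 7.74, 8.22 and 9.04 FPKM in control replicates 1 to 3. Its lowest library was KO replicate 2, as for Vcan and for most of the other proteases of the list. Of 6 versican partners, 5 were tested, with 0 higher, 0 lower and a median of 0.05. The fibulin genes Fbln1 and Fbln2 averaged 74.2 ± 3.19 and 66.1 ± 9.29 FPKM in KO, against 71.7 ± 6.76 and 57.7 ± 7.90 FPKM in control shelves. Tnc, which encodes tenascin-C, averaged 44.2 ± 4.0 FPKM in KO and 39.8 ± 5.10 FPKM in control shelves. Tnr was listed at 0 in all libraries.

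**Figure D5:**
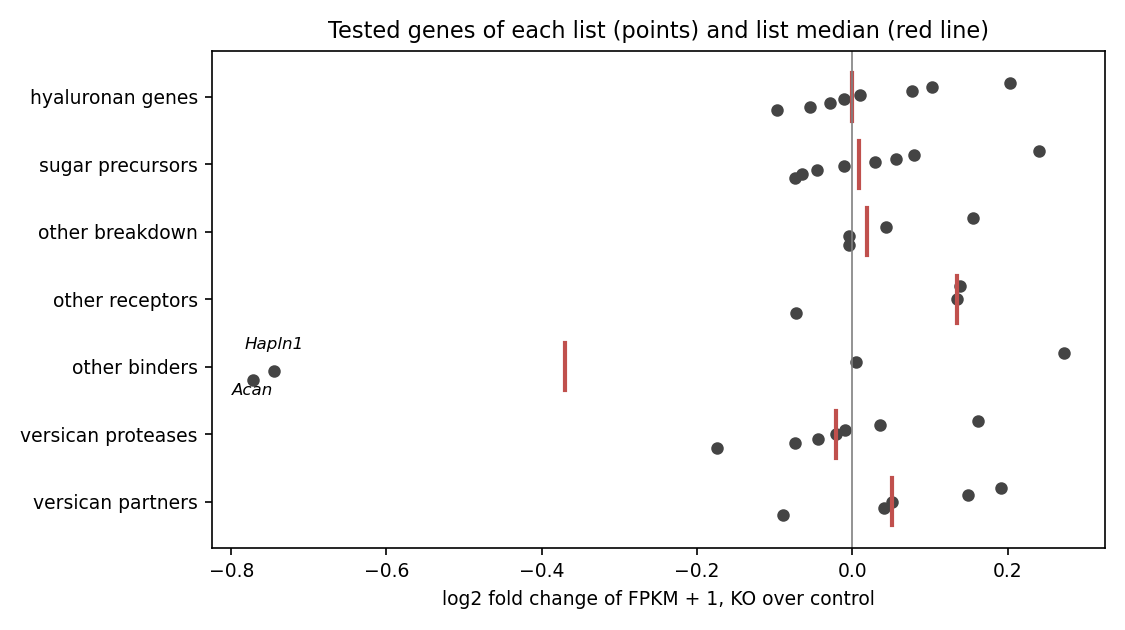
Log2 fold change of FPKM + 1, KO over control (horizontal axis), for the tested genes of the hyaluronan members and 6 related lists (rows); points are genes and red lines list medians. All list medians but that of the other binders lie between -0.02 and 0.14, and the points farthest from 0 are the cartilage binders Acan and Hapln1, whose groups overlapped.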

How the data were processed

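Total RNA of E14.5 palatal shelves was sequenced in 3 KO and 3 control libraries. The authors deposited FPKM, which per the file name is their unit; values summed to between 384979 and 424993 per library. The submitters' processing notes name mm10 and DESeq2 version 1.5.2. Aligner, counter, annotation release and strandedness: not given in the sources used here. Depth is unknown, so no counting interval is given. Each column name is a library name that 1 sample's description gives. A table of gene names by Ensembl ID named 50824 of the 55631 IDs, and gene positions came from GENCODE M21 on GRCm38.

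A linear model of log2(FPKM + 1) on genotype alone was fitted in limma (version 3.58.1, under R version 4.3.3) with a trended eBayes, and genes averaging under 1 FPKM were left out. Tests were two-sided with Benjamini-Hochberg adjustment over all 14714 tested genes. Fold changes on this scale understate those of low genes. The model was tested on simulated data. The members and lists were chosen with earlier results of these data known. Besides the members, the text names by rule the 2 genes of smallest p and the 2 of highest level in each related list, the 3 genes nearest in profile to each of the 3 most variable tested members, and up to 3 leading markers a list. Of the genes so chosen, 2 are not reported here.

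The alternatives tried were a pseudocount of 0.1 or 0.01, filters of 0, 0.1 and 5 FPKM, quantile and median-of-ratios normalization, TPM, eBayes without trend or robust, a block on replicate number, weighted libraries, embryo sex read from Xist and Ddx3y, and each library left out.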

Additional observations from a re-analysis of the deposited data

How the results depend on the processing

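Of the 8 tested members, 7 were fitted under all 19 alternatives and Has3 under 18, since its mean is under the filter of 5 FPKM. None of the 8 passed in any fit it entered, and the lowest adjusted p was 0.317, for Has2 with library weights (limma). Of 164 member values recomputed, 144 kept their direction and side of the threshold or, for Has1, moved by less than 1 SD. The log2 fold changes were fixed in advance under the filters, the eBayes variants and the replicate block, where only p-values could move. The 144 include those values, so the count overstates how stable the directions are. Has2, Hyal2 and Cd44 kept their direction throughout, from 0.07 to 0.33, from -0.17 to -0.04 and from 0.07 to 0.14 (log2). Hyal1 turned to 0.003 with median-of-ratios scaling, 0.018 with TPM, 0.040 with library weights and 0.014 with sex as a covariate. Vcan turned to 0.005 with quantile normalization, 0.002 with TPM, 0.153 with library weights and 0.135 with sex as a covariate. KO replicate 2 was the only library with Xist above Ddx3y, so the sex covariate in effect takes that library out. It gave the same log2 fold changes as leaving out KO replicate 2, and these are not separate checks. Has1 moved to 0.41 with a pseudocount of 0.01, from 0.15, which follows from the smaller pseudocount on a low gene. The cause of the other turns was not tested. With each library left out in turn, the log2 fold changes ran from 0.04 to 0.27 for Has1, from 0.07 to 0.33 for Has2, from -0.215 to 0.086 for Has3, from -0.065 to 0.065 for Hyal1, from -0.17 to -0.04 for Hyal2, from 0.07 to 0.12 for Cd44, from -0.021 to 0.132 for Hmmr, from -0.12 to 0.14 for Vcan and from -0.11 to 0.16 for Tnfaip6. Over all genes 48 were higher and 1 lower in KO. With a filter of 5 FPKM, which tests fewer genes, 24 were higher and 0 lower. There were 2 lower with no filter, with a filter of 0.1 FPKM and with sex as a covariate, and from 1 to 2 lower and from 32 to 48 higher with a library left out.

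The replicate numbers share no stated litter or day, and same-numbered libraries did not deviate together in every pair (correlations across genes of 0.02, 0.31 and -0.24 for numbers 1 to 3), so the numbers were not taken to pair the samples. With the replicate block, 41 genes were higher and 1 lower, and 0 members passed. With 3 libraries a group, the 95% intervals of the members reached down to -0.47 (Has3) and up to 0.56 (Has2). Differences inside the interval of a gene are compatible with its values, and the SE ran from 0.063 (Cd44) to 0.178 (Has3).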
